A study of Mus musculus with 67 samples.

Results

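Kidney transcripts of hypertensive BPH/2J mice were compared with those of normotensive BPN/3J mice. The members are 10 of the 67 arrays of the study, 5 labelled as BPH kidney and 5 labelled as BPN kidney, taken by their titles, and all probe sets of the array were examined. Both strains are inbred, all mice were male and 12 weeks old, no treatment or transgene is named in the labels, and the strains share breeding from one selection programme for blood pressure. The stated systolic pressures were 142 ± 5 mmHg in BPH and 94 ± 6 mmHg in BPN, with the kind of error not named. The study also measured hypotensive BPL/1J mice (69 ± 1.7 mmHg) and heart, liver and aorta of the 3 strains. The 4 BPL kidney arrays enter the fit to estimate the spread, and their levels are shown beside the others where this helps. The design text gives 5 mice per strain, collected independently, and does not tie arrays to animals, so each p-value weighs a difference only against array-to-array spread, which can be partly technical.

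The kidney sets long-term blood pressure by matching sodium excretion to intake, and most filtered sodium is reclaimed by the proximal tubule and the loop of Henle before the distal nephron makes the final adjustment. In the collecting duct, principal cells take up sodium through the epithelial sodium channel and intercalated cells move acid, base and chloride. Renin, released by the kidney, starts the angiotensin cascade, which acts on vessels, on the adrenal gland and on the tubule itself.

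Levels are log2 intensities and differences are log2 values of BPH minus BPN ± standard error from a limma fit over the 14 kidney arrays. A probe set or gene was called when its Benjamini-Hochberg adjusted p over all 38385 probe sets was under 0.05, and only called genes are said to have risen or fallen. A gene was represented by its probe set of highest kidney mean, which gave 19147 named genes. Array medians lay between 29.8 and 31.5 intensity units, array pairs correlated between 0.983 and 0.9966 across probe sets, and none of the pairs was identical. No detection calls accompany the values. A fold is therefore left out for a gene whose mean in either strain lay under 3.64, the highest lower quartile of the 10 arrays, where a value may be background.

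The tissue was kidney by its defining genes. Umod, the urinary glycoprotein of the thick ascending limb, averaged 13.43 ± 0.02 in BPH and 13.27 ± 0.05 in BPN (SD, n = 5 each). Lrp2, the endocytic receptor megalin of the proximal tubule, averaged 12.65 ± 0.08 in BPH and 12.68 ± 0.08 in BPN. Nphs1, the nephrin of podocytes, averaged 6.33 ± 0.08 in BPH and 6.29 ± 0.08 in BPN. None of these 3 genes was called.

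Arrays BPN 4, BPN 5 and BPL 1 stood apart by adrenal transcripts. Cyp11b1, the adrenal enzyme that finishes corticosterone synthesis, read 2.45, 2.64, 2.54, 2.45 and 2.39 in the BPH arrays and 2.43, 3.12, 3.40, 7.77 and 8.43 in BPN arrays 1 to 5. Of the 13 adrenal cortex genes listed, 12 were measured, and their mean level relative to the mean of the 10 arrays lay between -0.68 and -0.49 in BPH arrays and between -0.50 and 2.07 in BPN arrays. The log2 of their summed intensities lay between 11.12 and 11.20 in BPH and between 11.15 and 12.41 in BPN, and none of the 12 was called. By mean level BPN 1 lay among the BPH arrays and BPN 2 and BPN 3 slightly above them, whereas by sum BPN 2 (11.15) lay among them and BPN 1 (11.29) and BPN 3 (11.33) above. Of 13 adrenal medulla genes 11 were measured, with mean levels between -0.28 and -0.08 in BPH and between -0.19 and 0.76 in BPN and none called. Results are therefore given with and without BPN 4 and BPN 5.

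**Figure D1:**
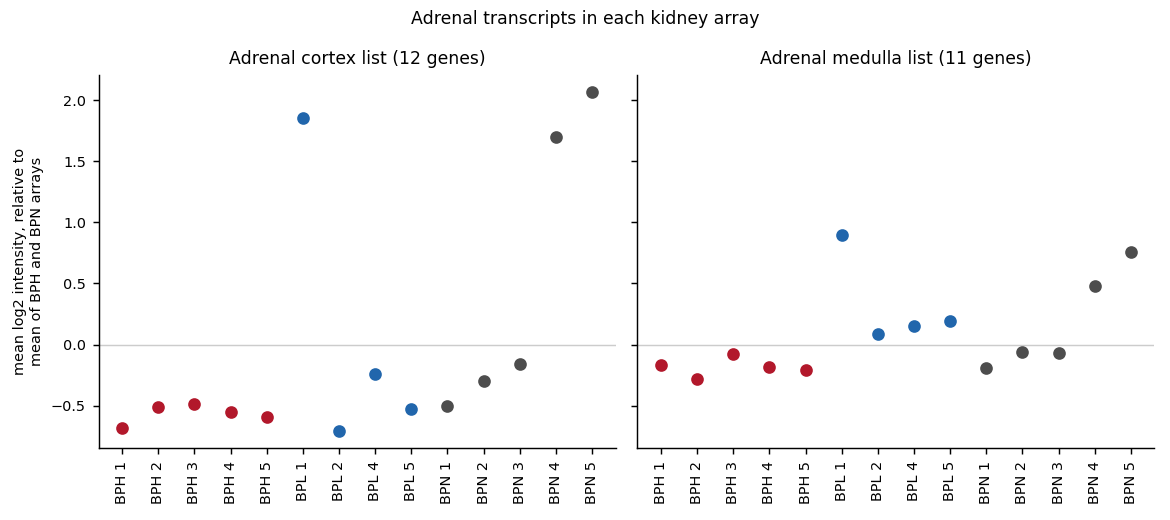
Mean log2 intensity of the adrenal cortex list (left) and adrenal medulla list (right) in each kidney array, relative to the mean of the BPH and BPN arrays; each point is 1 array, in the order BPH (red), BPL (blue) and BPN (grey). BPN 4, BPN 5 and BPL 1 lie above the other arrays in both panels, at 1.70, 2.07 and 1.85 for the cortex list.

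BPH and BPN kidneys differed at 2706 of 38385 probe sets (7.05%), 1404 higher (3.66%) and 1302 lower (3.39%) in BPH. By gene, 1643 of 19147 were called (8.58%), 847 higher in BPH (4.42%) and 796 lower (4.16%). Without BPN 4 and BPN 5, 2233 probe sets were called (5.82%), of which 1899 were called with the same sign in both fits. The differences were mostly small, with a median size of 0.42 among called probe sets, and 144 genes passed a 2-fold difference, 82 higher and 62 lower. In 1419 called genes the 5 BPH and 5 BPN arrays did not overlap, and over all named genes, called or not, they did not overlap with BPH higher in 5.41% and with BPH lower in 4.81%. The median over all named genes was -0.005. Of the 434 called genes with several probe sets, 167 had another probe set called the same way, 254 had none other called, and 16 had one called the opposite way.

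The largest increases in BPH were of Angptl7 and Hdc. Angptl7, which encodes an angiopoietin-like secreted glycoprotein, read 10.50, 10.53, 10.38, 10.40 and 10.19 in the BPH arrays and 4.97, 5.46, 4.75, 4.78 and 5.34 in the BPN arrays. Hdc, the histidine decarboxylase that makes histamine, read 10.59, 10.36, 10.20, 10.60 and 10.54 in the BPH arrays and 5.79, 5.70, 5.81, 5.51 and 5.69 in the BPN arrays. In both genes every BPH array was far above every BPN array, in all arrays alike. Angptl7 rose by 5.34 ± 0.16 (40.4-fold, limma adjusted p = 6.32e-13) and Hdc by 4.76 ± 0.09 (27.1-fold, adjusted p = 1.56e-15). The BPL kidneys were near BPN for both, at a mean of 5.22 for Angptl7 and 5.72 for Hdc.

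Cyp4b1, a cytochrome P450 that oxidises fatty acids and foreign compounds, read 13.72, 13.78, 13.71, 13.70 and 13.61 in the BPH arrays and 10.76, 10.66, 10.60, 10.67 and 10.79 in the BPN arrays. It rose by 3.01 ± 0.06 (8.06-fold), and its BPL mean of 13.89 was near BPH. Cbr2, a carbonyl reductase known from lung, averaged 9.92 ± 0.26 in BPH and 6.42 ± 0.09 in BPN (11.3-fold). Atp4a, the catalytic subunit of the potassium-dependent proton pump of stomach that is also used in the collecting duct, averaged 7.59 ± 0.15 in BPH and 4.96 ± 0.12 in BPN (6.19-fold). Gdpd3, a lysophospholipase D, rose by 2.34 ± 0.10, and Atp10d, a lipid flippase of the P4-ATPase family, rose by 2.40 ± 0.08. Thumpd1, which takes part in acetylation of transfer RNA, rose by 3.83 ± 0.11 (14.3-fold). Plekhb1 rose by 2.75 ± 0.15 and Tmem87a by 2.47 ± 0.07.

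Ttr, the thyroid hormone and retinol transport protein made mainly by liver and choroid plexus, averaged 7.72 ± 0.13 in BPH and 4.59 ± 0.10 in BPN and rose by 3.13 ± 0.09. Fga, the fibrinogen alpha chain, was the other called member of the liver list and rose by 0.94 ± 0.11. Of the 5 measured liver genes, Alb was at 5.70 in BPH and 5.48 in BPN (adjusted p = 0.635), Apob differed by 0.26 (adjusted p = 0.676), and Cyp3a11 lay in the lowest quartile of both strains. The log2 sum of the 5 genes lay between 9.95 and 10.13 in BPH arrays and between 9.21 and 9.57 in BPN arrays, and its part in these results was not tested.

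The remaining large increases were of AA465934 (2.79 ± 0.09), Gm11100 (2.81 ± 0.16), Ankrd33b (3.41 ± 0.08) and Mid1 (2.30 ± 0.34), an X-linked ubiquitin ligase gene. For Ankrd33b the probe sets disagreed, since the other probe sets of the gene differed by -0.43 ± 0.10 and -0.62 ± 0.08, both called. A further probe set of Mid1 differed by only 0.09 ± 0.10 and was not called.

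Among the largest decreases, Tmem267, which encodes a transmembrane protein, read 3.16, 3.48, 3.61, 3.54 and 3.63 in the BPH arrays and 9.74, 9.76, 9.83, 9.88 and 10.02 in the BPN arrays. Its measured log2 difference was -6.36 ± 0.09 (adjusted p = 2.49e-17), whose size is set in part by background, because all 5 BPH arrays lay in the range of the lowest quartile. Spink6, a serine protease inhibitor of the Kazal type, read 3.26, 2.71, 3.09, 3.12 and 3.15 in the BPH arrays and 7.78, 8.20, 7.85, 8.07 and 7.94 in the BPN arrays (-4.90 ± 0.11), and the size of this difference carries the same limit. Both transcripts were high in every BPN array and near background in every BPH array. The BPL kidneys were near BPH for both, at 3.77 for Tmem267 and 3.12 for Spink6.

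Akr1c18, the hydroxysteroid dehydrogenase that inactivates progesterone, read 8.02, 8.04, 8.23, 7.56 and 7.31 in the BPH arrays and 10.93, 11.09, 10.75, 11.19 and 11.19 in the BPN arrays. It fell by 3.20 ± 0.14, which is 9.17-fold lower in BPH. The fall was 3.09 without the BPN arrays that carried adrenal transcripts. Aldh1a1, which makes retinoic acid from retinaldehyde, averaged 6.26 ± 0.27 in BPH and 8.73 ± 0.11 in BPN (5.55-fold lower in BPH). Crym, a thyroid hormone binding protein of the cytosol, averaged 7.80 ± 0.09 in BPH and 9.76 ± 0.12 in BPN.

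Membrane transporters were among the decreases. Slc6a18, a neutral amino acid transporter of the proximal tubule brush border, read 8.65, 8.53, 8.63, 8.63 and 8.79 in the BPH arrays and 10.84, 10.88, 10.76, 10.95 and 10.72 in the BPN arrays. It fell by 2.18 ± 0.07 (4.55-fold lower in BPH), its other probe set fell by 2.12 ± 0.08, and the strains did not overlap. Slc16a14, a member of the monocarboxylate transporter family, averaged 7.39 ± 0.40 in BPH and 9.71 ± 0.10 in BPN.

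Other large decreases were of single genes. Atg4a, a protease of autophagy, averaged 5.86 ± 0.09 in BPH and 9.10 ± 0.08 in BPN (9.41-fold lower in BPH). Mcm6, a subunit of the replicative helicase, fell by 2.78 ± 0.13, and its other probe set fell by 2.12 ± 0.12. Bik, a gene of the pro-apoptotic BH3 group, fell by 2.55 ± 0.09. The rest were Isoc2a (-2.10 ± 0.13), Serpinb8, a protease inhibitor (-1.99 ± 0.18), Sectm1b (-2.19 ± 0.10), Vwa1, an extracellular matrix protein (-1.93 ± 0.10), and 4930481A15Rik (-3.83 ± 0.14). All of these 15 increases and 15 decreases were chosen for size among genes called with the same sign with and without BPN 4 and BPN 5, and none lost its call when any 1 BPH or BPN array was left out.

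**Figure D2:**
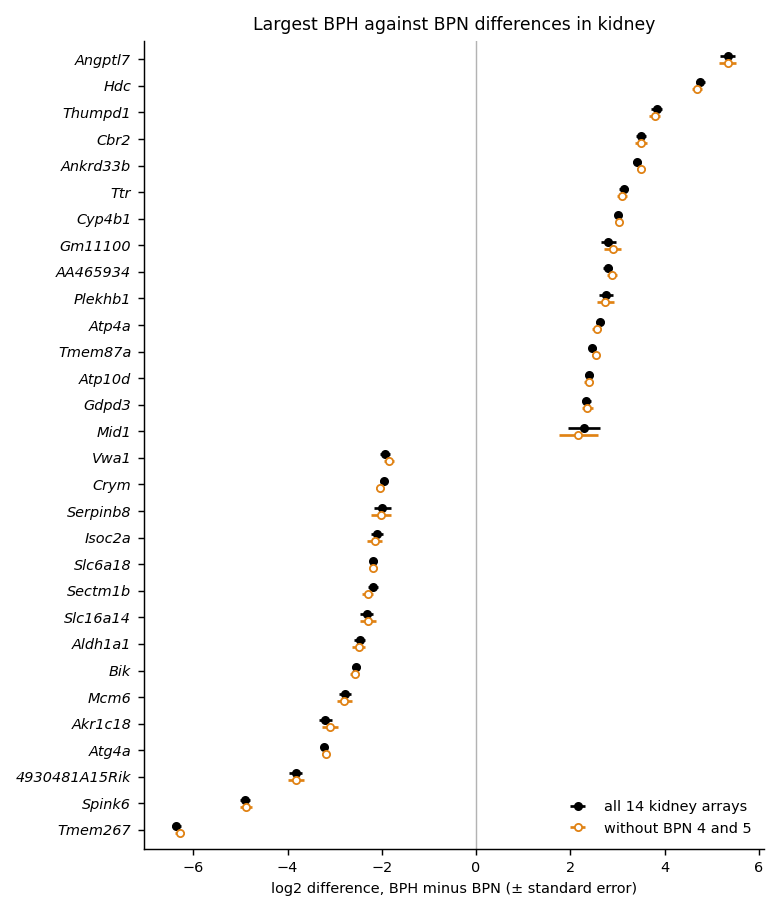
Log2 differences of BPH minus BPN with standard errors for the 15 largest increases and 15 largest decreases, in the fit of all 14 kidney arrays (black) and without BPN 4 and BPN 5 (orange). Angptl7 lies at 5.34 and Tmem267 at -6.36, and the paired points of a gene lie close together.

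Called genes lay beside other called genes more often than uncalled genes did. In RefSeq gene order, 445 of 1638 called genes (27.2%) had a called immediate neighbour among the measured genes, as did 2597 of 17272 uncalled genes (15%), and 12 of the 30 genes of largest difference had one. Next to Tmem267, 4833420G17Rik (-1.12 ± 0.08) and Ccl28, a chemokine gene (-1.13 ± 0.27), fell. Sectm1a fell by 1.26 ± 0.09 beside Sectm1b. Ganc, an alpha-glucosidase gene, rose by 0.93 ± 0.07 beside Tmem87a, and Dcxr, a xylulose reductase gene, rose by 0.39 ± 0.05 beside Cbr2. Directions could also be opposed. The largest opposed difference was of Dap, which fell by 1.17 ± 0.07 beside Ankrd33b, whose own probe sets disagreed. Coro1a fell by 0.50 ± 0.08 beside Gdpd3, Mtor by 0.27 ± 0.06 beside Angptl7, and Rfng, the other neighbour of Cbr2, by 0.35 ± 0.06. These neighbours were named after their values were seen, and neighbouring probe sets may share sequence differences between the strains, whose part was not tested.

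The BPL kidneys did not fall on one side. Among the 144 genes with a 2-fold difference, the BPL mean was nearer to BPH in 77 and nearer to BPN in 67. The comparisons of BPL with BPN and of BPH with BPN share the BPN arrays, so the values are only set side by side. BPL levels near BPH were seen for Ankrd33b (8.29 in BPH, 8.33 in BPL, 4.88 in BPN), Atp10d (8.86 in BPH, 9.05 in BPL, 6.46 in BPN) and Slc16a14 (7.39 in BPH, 7.25 in BPL, 9.71 in BPN). BPL levels near BPN were seen for Slc6a18 (8.65 in BPH, 10.69 in BPL, 10.83 in BPN), Atg4a (5.86 in BPH, 9.12 in BPL, 9.10 in BPN) and Thumpd1 (7.98 in BPH, 4.16 in BPL, 4.14 in BPN).

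Genes of the intercalated cells of the collecting duct were higher in BPH. Of 15 listed genes, all measured, 11 rose and none fell, against 4.42% higher among all named genes, and 11 rose without BPN 4 and BPN 5, against 3.76%. The list median was 0.44, against -0.005 for all named genes, and in 10 of the 15 the BPH and BPN arrays did not overlap, every BPH array being the higher, against 5.41% of named genes. Leaving out any 1 array gave 10 or 11 increases, and a joint fit that pooled the spread of every tissue (12 groups) gave 7, in which Slc26a4 was not called (adjusted p = 0.427). In whole kidney, a change in the number of cells of a type and a change in RNA per cell cannot be told apart. Counts for each further list stand against the same shares of all named genes, 4.42% higher and 4.16% lower, or 3.76% and 3.04% without BPN 4 and BPN 5.

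The increases covered the transporters, the proton pump and the transcription factor of these cells. Foxi1, the forkhead factor required for intercalated cell identity, read 8.43, 8.27, 8.36, 8.52 and 8.50 in the BPH arrays and 7.79, 7.49, 7.98, 7.90 and 7.89 in the BPN arrays, and rose by 0.60 ± 0.08 (adjusted p = 0.000168). Slc26a4, the chloride and bicarbonate exchanger pendrin of type B and non-A, non-B cells, read 9.14, 9.10, 9.15, 9.23 and 9.36 in the BPH arrays and 8.90, 8.75, 8.80, 8.83 and 8.78 in the BPN arrays (0.38 ± 0.06). For both genes the lowest BPH array was above the highest BPN array. Rhbg, an ammonia transporter, rose by 0.67 ± 0.07, Slc4a1, the type A cell bicarbonate exchanger, by 0.55 ± 0.09, and Slc4a9, a type B cell bicarbonate transporter, by 0.53 ± 0.07.

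The proton pump subunits Atp6v0d2 and Atp6v1c2 rose by 0.64 ± 0.07 and 0.49 ± 0.06. Further members, named after their values were seen, were Atp6v1b1 (0.33 ± 0.06), Atp6v1g3 (0.37 ± 0.07), Kit (0.44 ± 0.10), a receptor kinase, and Aqp6 (0.61 ± 0.17), a vesicular water channel. The other probe sets of Atp6v1b1 (0.19 ± 0.09) and Kit (0.26 ± 0.10) were not called, while that of Atp6v0d2 (0.64 ± 0.13) was. The call on Aqp6 was lost when any 1 of BPH 1, BPH 2, BPH 4, BPH 5, BPN 1, BPN 2, BPN 3 or BPN 5 was left out, with a weakest adjusted p of 0.122 at a difference of 0.52. The 4 members not called were Rhcg (0.17), Atp6v0a4 (-0.15), Car2 (-0.10) and Car12 (-0.01), of which the last 2, carbonic anhydrases, are expressed in other tubule cells too. The mean level of the list in BPL arrays lay between -0.17 and -0.06, against 0.11 to 0.27 in BPH and -0.27 to -0.13 in BPN. The log2 sums of the list overlapped, at 12.89 to 13.07 in BPH, 12.93 to 13.03 in BPL and 12.84 to 12.93 in BPN. Slc4a1 is also the band 3 protein of red cells, and Alas2, a red cell gene, differed by 0.39 ± 0.25 (adjusted p = 0.469). Without BPN 4 and BPN 5, Alas2 differed by 0.72 ± 0.24 (adjusted p = 0.103). The part of red cells in the Slc4a1 difference was not tested.

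**Figure D3:**
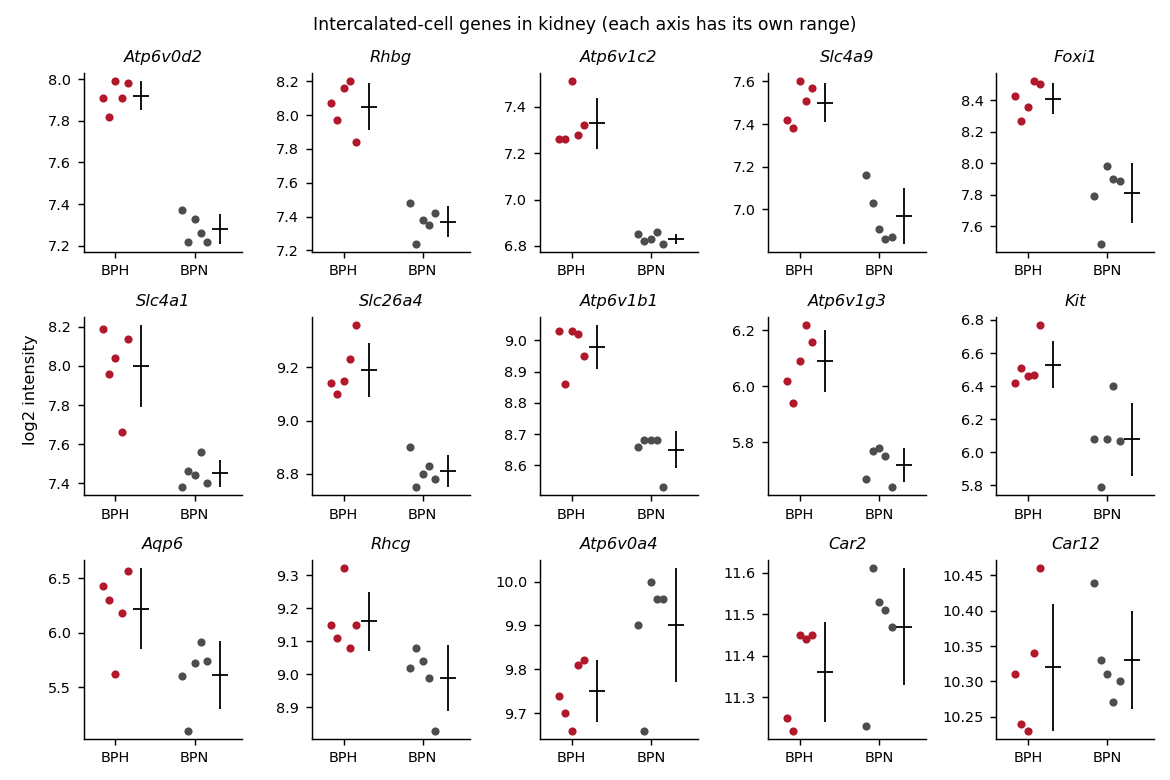
Log2 intensity of the 15 intercalated cell genes, ordered by adjusted p, in 5 BPH arrays (red, left) and 5 BPN arrays (grey, right); black bars give the mean and SD, and each panel has its own vertical range. The BPH points of Atp6v0d2, Rhbg, Foxi1 and Slc26a4 all lie above the BPN points, while those of Car2 and Car12 overlap.

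Promoter sequences of 10 of these 15 genes were found in the RefSeq table (build GRCm38.p6), and 3 are shown, because Foxi1 is the factor of these cells and Atp6v1b1 and Slc26a4 are called members whose sequences hold a match to a forkhead core. Each is the 250 bases before the annotated start, 5′ to 3′ in the direction of the gene. Capitals mark a match to TGTTTA or TATTTA on either strand. The Foxi1 sequence is chr11:34208090-34208339 on the minus strand, that of Atp6v1b1 is chr6:83742767-83743016 on the plus strand, and that of Slc26a4 is chr12:31559985-31560234 on the minus strand.
Foxi1: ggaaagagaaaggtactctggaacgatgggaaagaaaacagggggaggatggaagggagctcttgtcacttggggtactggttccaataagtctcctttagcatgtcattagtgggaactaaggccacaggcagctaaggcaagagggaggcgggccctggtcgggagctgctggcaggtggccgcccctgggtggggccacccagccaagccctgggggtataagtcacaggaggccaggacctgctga
Atp6v1b1: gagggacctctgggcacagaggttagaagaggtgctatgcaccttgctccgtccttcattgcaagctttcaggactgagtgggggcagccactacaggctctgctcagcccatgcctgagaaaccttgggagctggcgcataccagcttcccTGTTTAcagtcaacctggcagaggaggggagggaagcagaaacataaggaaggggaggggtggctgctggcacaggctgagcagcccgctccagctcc
Slc26a4: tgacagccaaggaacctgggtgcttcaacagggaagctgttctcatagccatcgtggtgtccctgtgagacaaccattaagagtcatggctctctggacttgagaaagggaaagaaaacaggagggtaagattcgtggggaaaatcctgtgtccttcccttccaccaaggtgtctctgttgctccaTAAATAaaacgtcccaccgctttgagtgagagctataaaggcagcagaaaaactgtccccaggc
The core was found in 3 of the 10 promoters (30%) and in 22.1% of all 32851 promoters of the table. The match not shown was in Car12, which was not called. The called members Aqp6, Atp6v1c2, Atp6v1g3, Foxi1 and Kit held none. The longer form TGTTTAC was found in 1 of the 10, Atp6v1b1, 98 bases before the start, and in 3.17% of all promoters. The match in Slc26a4 reads TATTTA on the opposite strand, and the Foxi1 promoter held none. A match describes letters only.

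The epithelial sodium channel rose in all 3 of its subunits. Scnn1b read 8.37, 8.19, 8.54, 8.22 and 8.42 in the BPH arrays and 7.99, 7.96, 7.85, 7.80 and 7.78 in the BPN arrays, without overlap, and rose by 0.48 ± 0.07 (1.39-fold, adjusted p = 0.000477). Scnn1a rose by 0.33 ± 0.06 and Scnn1g by 0.33 ± 0.07. In the whole sodium transport list, 6 of 22 measured genes rose and 2 fell, with the same counts without BPN 4 and BPN 5 and a list median of 0.02. In the joint fit of all 12 groups 1 gene rose, Scnn1b, and 1 fell, while Scnn1a (adjusted p = 0.121) and Scnn1g (adjusted p = 0.111) were not called. The others that rose included Slc26a4 and Kcnj10, a basolateral potassium channel (0.31 ± 0.06).

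The 2 decreases of the list were Slc12a3 and Cul3, a ubiquitin ligase scaffold named after its values were seen (-0.24 ± 0.05, adjusted p = 0.0127). Slc12a1, the loop cotransporter blocked by furosemide, differed by -0.17 ± 0.07 (adjusted p = 0.228), and Slc9a3, the proximal sodium and proton exchanger, by -0.17 ± 0.07 (adjusted p = 0.215). Slc12a3, the thiazide-sensitive cotransporter of the distal tubule, fell by 0.37 ± 0.06 on its brightest probe set and rose by 0.33 ± 0.08 (adjusted p = 0.0194) on its other probe set, so its direction is not settled.

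Of the corticosteroid genes, 2 of 9 measured rose and 1 fell, with a median of 0.02. Nr3c2, the mineralocorticoid receptor, averaged 7.29 ± 0.10 in BPH and 6.95 ± 0.08 in BPN and rose by 0.34 ± 0.06. Its other probe set differed by 0.08 ± 0.09 and was not called. Hsd11b2, the enzyme that shields that receptor from corticosterone, rose by 0.27 ± 0.07 (adjusted p = 0.0199). That call was lost without BPN 4 and BPN 5 (0.23, adjusted p = 0.106) and when BPH 3, BPH 5 or BPN 5 was left out (weakest 0.23, adjusted p = 0.0556). Fkbp5, a glucocorticoid-induced chaperone, fell by 0.44 ± 0.11. Its call was lost without BPN 4 and BPN 5 (-0.31, adjusted p = 0.0721) and without BPH 1 or BPH 5 (-0.42, adjusted p = 0.0534). Sgk1, an aldosterone-induced kinase, differed by -0.22 ± 0.13 (adjusted p = 0.441). Of 9 measured principal cell genes, 2 rose, Scnn1g and Hsd11b2, with a median of 0.03, and 1 rose without BPN 4 and BPN 5. Aqp2, the vasopressin-regulated water channel, differed by 0.06 ± 0.10 and Avpr2, the vasopressin receptor of these cells, by -0.13 ± 0.08.

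In the loop and distal tubule list, all 15 genes were measured, 2 rose and 3 fell, with a median of 0.01. Slc12a3, whose probe sets disagreed, was among the 3. The number that fell was 2 without BPN 4 and BPN 5 and 0 in the joint fit of all 12 groups. Casr, the calcium-sensing receptor, averaged 7.64 ± 0.06 in BPH and 7.12 ± 0.12 in BPN and rose by 0.52 ± 0.07. Cldn16, a tight junction protein needed for magnesium and calcium uptake, rose by 0.45 ± 0.08. Pvalb, a calcium buffer of the early distal tubule, fell by 0.47 ± 0.09. Trpm6, a magnesium channel, fell by 0.29 ± 0.08, a call lost without BPN 4 and BPN 5 (-0.27, adjusted p = 0.13) and without any 1 of BPH 1, BPH 2, BPH 4, BPN 2, BPN 3, BPN 4 or BPN 5 (weakest -0.25, adjusted p = 0.0949). Of 15 measured calcium, phosphate and vitamin D genes, 1 rose (Casr) and 2 fell (Slc34a3 and Trpm6), with a median of 0.02. Without any 1 of the arrays just named, 1 fell. Slc34a3, a sodium-dependent phosphate transporter, fell by 0.31 ± 0.06.

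In the renin-angiotensin list, 10 of 13 genes were measured, 2 rose and 3 fell, with a median of -0.04. Ren1 was not analysed here. Mme, the membrane peptidase neprilysin that breaks down natriuretic peptides and angiotensins, read 9.51, 9.34, 9.52, 9.54 and 9.63 in the BPH arrays and 8.14, 8.18, 8.24, 8.24 and 7.85 in the BPN arrays. It rose by 1.38 ± 0.08 (2.60-fold, adjusted p = 5.14e-09), with no overlap. Mas1, the receptor for angiotensin 1-7, averaged 5.31 ± 0.13 in BPH and 6.16 ± 0.13 in BPN and fell by 0.85 ± 0.08. Enpep, the aminopeptidase that trims angiotensin II, averaged 7.53 ± 0.22 in BPH and 8.23 ± 0.15 in BPN and fell by 0.70 ± 0.10.

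Ace, the converting enzyme, rose by 0.40 ± 0.11 (adjusted p = 0.0331). Its call was lost without BPN 4 and BPN 5 (0.42, adjusted p = 0.0919) and without any 1 of BPH 1, BPH 2, BPH 3, BPN 2, BPN 3 or BPN 4 (weakest 0.34, adjusted p = 0.095), which left 1 increase in the list. The other probe set of Ace was not called (0.33 ± 0.11, adjusted p = 0.0846 in the limma fit of all kidney arrays). Agtr2, the type 2 receptor, lay in the lowest quartile in both strains (3.33 in BPH and 3.61 in BPN). Its call (-0.28) was lost without BPN 4 and BPN 5 (adjusted p = 0.136) and without any 1 of BPH 1, BPH 2, BPH 4, BPH 5, BPN 2, BPN 3, BPN 4 or BPN 5 (weakest adjusted p = 0.0895, at -0.25). Agt, the angiotensin precursor, differed by -0.20 ± 0.19 (adjusted p = 0.686) and averaged 8.64 in BPH, 5.20 in BPL and 8.84 in BPN. Agtr1a, the type 1 receptor, differed by -0.03 ± 0.07.

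Of 27 measured vasoactive signalling genes, 7 rose and 1 fell, and 3 rose and none fell without BPN 4 and BPN 5, with a median of 0.04. Npr1, the receptor for atrial natriuretic peptide, read 4.66, 4.88, 4.65, 4.93 and 4.79 in the BPH arrays and 4.15, 4.27, 4.08, 3.99 and 4.50 in the BPN arrays. It rose by 0.58 ± 0.10, with every BPH array above the highest BPN array. Avpr1a, the vascular vasopressin receptor, rose by 0.44 ± 0.08. Npr3, the clearance receptor, rose by 0.49 ± 0.11 and Ece1, the endothelin-converting enzyme, by 0.40 ± 0.08, and both calls were lost without BPN 4 and BPN 5 (adjusted p = 0.079 and 0.0519). Pde5a, a cyclic GMP phosphodiesterase, fell by 0.38 ± 0.09, a call also lost there (-0.32, adjusted p = 0.111). In the limma fit of all kidney arrays, the other probe set of Ece1 differed by 0.55 ± 0.07 (adjusted p = 6.28e-05). That of Pde5a differed by -0.28 ± 0.08 (adjusted p = 0.0456), and both were called. That of Npr3 differed by 0.2 ± 0.11 (adjusted p = 0.368) and was not called. Without BPH 5, 2 genes of the list fell. Edn1, which encodes endothelin 1, lay in the lowest quartile in the mean of BPH, and Nos3, the endothelial nitric oxide synthase, differed by 0.16 ± 0.09 (adjusted p = 0.374). Of 10 measured sympathetic and dopamine genes, 1 fell and none rose, with a median of 0.01. It was Ddc, the decarboxylase that makes dopamine in the proximal tubule (-0.62 ± 0.08), which averaged 9.22 ± 0.05 in BPH and 9.84 ± 0.16 in BPN. Without BPN 1, 1 gene of that list rose. Th, a catecholamine gene of the adrenal medulla list, differed by -0.58 ± 0.22 (adjusted p = 0.145) and by -0.24 without BPN 4 and BPN 5.

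Proximal tubule markers fell in 3 of 18 measured genes and rose in none, with the same counts without BPN 4 and BPN 5 and a median of -0.11. Gatm, the first enzyme of creatine synthesis, averaged 12.07 ± 0.08 in BPH and 12.69 ± 0.05 in BPN and fell by 0.62 ± 0.06. Slc7a9 (-0.44 ± 0.07) and Slc7a7 (-0.32 ± 0.06), amino acid transporters of the brush border and basolateral membrane, fell. Of 18 measured organic ion and drug transporters, 7 rose and 2 fell (6 and 1 without BPN 4 and BPN 5), with a median of 0.12, against 4.42% higher and 4.16% lower among all named genes. In the joint fit of all 12 groups 3 rose. Abcc2, an apical export pump for conjugates, read 10.06, 9.81, 9.65, 9.82 and 10.05 in the BPH arrays and 8.60, 8.39, 9.11, 9.07 and 9.05 in the BPN arrays. It rose by 1.03 ± 0.13 (2.04-fold), and the arrays did not overlap. Slco4c1, Slco1a6 and Slc22a2, organic ion carriers, rose by 0.51 ± 0.08, 0.36 ± 0.07 and 0.33 ± 0.06. The other probe set of Slco4c1 differed by 0.36 ± 0.14 and was not called. Slc47a1, the apical exporter of organic cations, fell by 0.56 ± 0.05.

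Genes known to respond to androgen in mouse kidney rose in 4 of 7 measured and fell in 1, with the same counts without BPN 4 and BPN 5 and a median of 0.61, against 4.42% higher and 4.16% lower among all named genes. Gusb, the lysosomal beta-glucuronidase, averaged 10.44 ± 0.22 in BPH and 8.66 ± 0.20 in BPN and rose by 1.78 ± 0.12 (3.44-fold). Its other probe set, at a kidney mean of 4.02, differed by 0.05 ± 0.08 and was not called. The other increases were Cyp4b1, Cyp7b1, an oxysterol hydroxylase (0.59 ± 0.11), and Slco1a1, an organic anion carrier (0.61 ± 0.14). Cyp2j13, an epoxygenase of the CYP2J group, averaged 7.84 ± 0.04 in BPH and 8.65 ± 0.16 in BPN and fell by 0.80 ± 0.07. The mean level of the list lay between 0.28 and 0.48 in BPH, 0.43 and 0.55 in BPL, and -0.56 and -0.31 in BPN. By gene, the BPL mean was near BPH for Cyp4b1 (13.89) and near BPN for Gusb (8.54).

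Of 26 measured genes of arachidonate and epoxide metabolism, 2 rose and 2 fell, with the same counts without BPN 4 and BPN 5 and a median of 0.03. Besides Cyp2j13, the called members were Cyp4f18 and Cyp4a14, which lay in the lowest quartile in both strains, and Ptger1, a prostaglandin E2 receptor (0.29 ± 0.08). The call on Ptger1 was lost without any 1 of BPH 2, BPH 5, BPN 1, BPN 2, BPN 3 or BPN 4 (weakest 0.25, adjusted p = 0.0995), and that on Cyp4a14 without BPN 4 and BPN 5 (0.28, adjusted p = 0.0881). Without any 1 of BPH 2, BPH 5, BPN 1, BPN 2 or BPN 3, 1 gene of the list rose. Ephx2, the soluble epoxide hydrolase, differed by 0.17 ± 0.05 (adjusted p = 0.0768, and 0.05 without BPN 4), and the epoxygenase Cyp2c23 by 0.06 ± 0.09 (adjusted p = 0.809). Of 16 measured phase II conjugation genes, 2 rose and 1 fell, with a median of 0.06. They were Ugt2b37 (1.31 ± 0.20), a glucuronosyltransferase with 8.83 ± 0.46 in BPH, 11.23 in BPL and 7.53 ± 0.39 in BPN, Gstt2 (0.39 ± 0.06), a glutathione transferase, and Sult1c2 (-0.28 ± 0.06), a sulfotransferase.

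Of 17 measured genes of fatty acid oxidation and ketogenesis, 8 rose and 1 fell, with a median of 0.22, against 4.42% higher and 4.16% lower among all named genes. The number that rose was 4 without BPN 4 and BPN 5. It was also 4 without BPH 1 or BPN 4, 5 without BPH 4, BPN 2 or BPN 5, and 1 in the joint fit of all 12 groups. Acot1, an acyl-CoA thioesterase, averaged 9.25 ± 0.08 in BPH and 8.46 ± 0.11 in BPN and rose by 0.79 ± 0.08 (adjusted p = 8.77e-06, and 0.0711 in the joint fit). Cpt2, a mitochondrial carnitine transferase, rose by 0.45 ± 0.07, Acadl, a long-chain dehydrogenase, by 0.31 ± 0.06, and Ehhadh, a peroxisomal enzyme, by 0.31 ± 0.07. Acaa2, the last enzyme of the mitochondrial cycle, read 9.42, 9.50, 9.82, 9.60 and 9.60 in the BPH arrays and 10.91, 11.04, 10.91, 10.92 and 10.79 in the BPN arrays. It fell by 1.33 ± 0.08 (2.51-fold lower in BPH), and in every BPH array it was below every BPN array.

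Of 24 measured oxidant and antioxidant genes, 2 rose and 2 fell, with a median of 0.04. Sod2, the mitochondrial superoxide dismutase, read 9.36, 9.29, 9.22, 9.42 and 9.37 in the BPH arrays and 10.18, 10.11, 10.10, 10.24 and 10.19 in the BPN arrays. It fell by 0.83 ± 0.06 (1.78-fold lower in BPH), without overlap, and its other probe set fell by 0.33 ± 0.07. The mean of Sod2 in BPL kidneys was 9.29. Prdx1, a peroxiredoxin, rose by 0.86 ± 0.08 and Nqo1, a quinone reductase, by 0.38 ± 0.07. Cybb, the NADPH oxidase subunit of phagocytes, fell by 0.44 ± 0.07.

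Antigen presentation genes were lower in BPH. Of 17 listed genes, all measured, 14 fell and none rose, against 4.16% lower among all named genes, and 13 fell without BPN 4 and BPN 5, against 3.04%. The list median was -0.57, and in 13 of the 17 every BPH array was below every BPN array, against 4.81% of named genes. Leaving out any 1 array gave between 11 and 13 decreases. H2-Ab1, the beta chain of a class II molecule, read 8.40, 8.01, 8.38, 8.37 and 8.22 in the BPH arrays and 9.66, 10.65, 9.68, 9.85 and 9.30 in the BPN arrays. BPN 2 was the highest array, and the lowest BPN array was still above every BPH array. H2-Ab1 fell by 1.55 ± 0.18 (2.93-fold lower in BPH, adjusted p = 2.38e-05).

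The decreases covered class II and class I genes. H2-Aa (-0.95 ± 0.12), H2-Ea (-1.09 ± 0.17) and H2-Eb1 (-1.01 ± 0.16), other class II chains, fell. H2-DMa, which loads peptides on class II molecules, fell by 1.17 ± 0.20. Further members, named after their values were seen, were Cd74, the invariant chain (-1.02 ± 0.20), H2-K1, a class I heavy chain (-0.57 ± 0.11), and B2m, the class I light chain (-0.57 ± 0.12). H2 genes are polymorphic and closely related, and their probe sets can bind alleles and related genes unequally, which was not tested, as the labels do not give the strains' H2 haplotypes. The mean level of the list lay between -0.43 and -0.22 in BPH, -0.43 and -0.17 in BPL, and 0.06 and 0.75 in BPN. The BPL list level was lowered by H2-Ea, which averaged 8.27 in BPH, 5.26 in BPL and 9.36 in BPN. By gene, BPL means were nearer to BPN for H2-Aa (7.16 in BPH, 7.82 in BPL, 8.11 in BPN), H2-Eb1 and H2-K1. They were nearer to BPH for H2-Ab1 (8.28 in BPH, 8.68 in BPL, 9.83 in BPN), H2-DMa, Cd74 and B2m.

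Macrophage markers fell in 6 of 12 measured genes (5 without BPN 4 and BPN 5) and rose in none, with a median of -0.41, against 4.16% lower among all named genes (3.04% without BPN 4 and BPN 5). When any 1 array was left out between 4 and 6 fell, and in the joint fit of all 12 groups 3 fell. C1qb, a chain of complement C1q made by macrophages, read 6.26, 6.41, 6.51, 6.46 and 6.40 in the BPH arrays and 7.22, 7.82, 7.26, 7.42 and 7.29 in the BPN arrays. It fell by 0.99 ± 0.14 (1.99-fold lower in BPH), without overlap. C1qc fell by 0.71 ± 0.14, and Adgre1, the classical surface antigen of mouse macrophages, fell by 0.90 ± 0.17 to a BPH mean of 3.86, against 4.76 in BPN. Cx3cr1, the fractalkine receptor, fell by 0.34 ± 0.08. The other probe sets of Adgre1 (-0.25 ± 0.14) and Cx3cr1 (-0.11 ± 0.11) were not called. Aif1 fell by 0.51 ± 0.13, a call lost without BPN 4 and BPN 5 (adjusted p = 0.0901) and without BPH 4, BPN 2 or BPN 4 (weakest -0.44, adjusted p = 0.0565). The log2 sum of the list lay between 9.57 and 9.85 in BPH and between 9.94 and 10.32 in BPN. The part of macrophage number in the lower antigen presentation genes was not tested.

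Of 10 measured lymphocyte genes, 3 fell and none rose (2 and 0 without BPN 4 and BPN 5, and none in the joint fit), with a median of -0.11. Ptprc, the CD45 antigen of all leukocytes, averaged 6.15 ± 0.22 in BPH and 6.94 ± 0.14 in BPN and fell by 0.79 ± 0.12. The other calls were on Cd3d and Cd3g, T cell receptor components whose mean in BPH lay in the lowest quartile. The call on Cd3d was lost without BPN 4 and BPN 5 (adjusted p = 0.179) and without any array but BPN 2 (weakest -0.36, adjusted p = 0.116). That on Cd3g was lost without any 1 of BPH 3, BPH 4, BPH 5, BPN 1, BPN 2, BPN 3 or BPN 4 (weakest -0.37, adjusted p = 0.0911). Without any 1 of BPH 3, BPH 4, BPH 5, BPN 1, BPN 3 or BPN 4, 1 lymphocyte gene fell.

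Of 15 measured interferon response genes, 4 fell and 1 rose (3 and 0 without BPN 4 and BPN 5), with a median of -0.19. Gbp2, a guanylate-binding protein, averaged 6.27 ± 0.12 in BPH and 6.91 ± 0.36 in BPN and fell by 0.63 ± 0.13. Irf1, an interferon-induced transcription factor, fell by 0.28 ± 0.07. Cxcl10, a chemokine, fell by 0.69 ± 0.19, a call lost without any 1 of BPH 2, BPH 3, BPH 5, BPN 1, BPN 2 or BPN 3 (weakest -0.56, adjusted p = 0.0877). Rsad2 (-0.33) and Ifit2 (0.31) lost their calls without BPN 4 and BPN 5 (adjusted p = 0.184 and 0.137). Rsad2 lost it also without any 1 of BPH 1, BPH 2, BPH 4, BPH 5, BPN 2, BPN 3, BPN 4 or BPN 5 (weakest -0.28, adjusted p = 0.0997). Ifit2 lost it also without any 1 of BPH 1, BPH 4, BPH 5, BPN 2, BPN 4 or BPN 5 (weakest 0.26, adjusted p = 0.0847). Without BPH 2, BPH 5, BPN 2 or BPN 3, 2 genes of the list fell. In the limma fit of all kidney arrays, the other probe sets of Rsad2 were also called lower in BPH. They differed by -0.38 ± 0.07 (adjusted p = 0.00209) and -0.45 ± 0.07 (adjusted p = 0.00035).

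**Figure D4:**
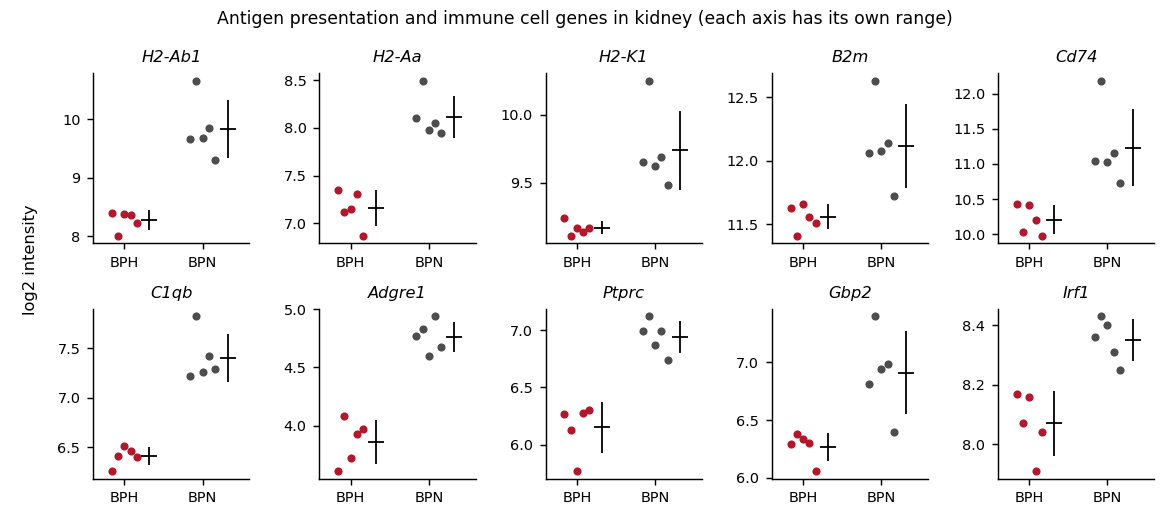
Log2 intensity of 10 antigen presentation and immune cell genes in 5 BPH arrays (red, left) and 5 BPN arrays (grey, right); black bars give the mean and SD, and each panel has its own vertical range. BPN 2 reads 10.65 for H2-Ab1, the highest of the 10 arrays, and all 5 BPH arrays lie below the BPN arrays for C1qb.

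Vascular and matrix genes changed in few members. Podocyte genes were called in both directions, 9.09% higher and 18.2% lower, against 4.42% and 4.16% among all named genes. Of 11 measured podocyte genes 1 rose and 2 fell, with a median of 0.15. They were Ptpro, a receptor phosphatase of the foot process (0.37 ± 0.07), Col4a4, a chain of basement membrane collagen (-0.42 ± 0.06), and Actn4, an actin crosslinker (-0.29 ± 0.07). Without BPH 3, 2 podocyte genes rose. Of 13 endothelial genes, 1 rose, Pecam1, an adhesion molecule of endothelial junctions (0.41 ± 0.09), with a median of 0, and without BPH 5 or BPN 2 a further 1 fell. Of 10 measured smooth muscle, mesangial and pericyte genes, 1 rose, Rgs5, a pericyte regulator of G protein signalling. It averaged 6.99 ± 0.18 in BPH and 5.84 ± 0.19 in BPN (1.14 ± 0.10), against a list median of 0.04.

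Of 27 measured matrix and fibrosis genes, 2 rose and none fell, with a median of -0.07. They were Tgfb2, a growth factor (0.87 ± 0.13), and Loxl2, a collagen crosslinking enzyme (0.56 ± 0.09). The other probe set of Loxl2 differed by 0.30 ± 0.09 and was not called. Those of Tgfb2 differed by 0.63 ± 0.07, which was called, and by 0.24 ± 0.15, which was not. Of 13 measured tubular injury genes, 2 rose and 1 fell, with a median of 0.03. Clu, a secreted chaperone, rose by 0.63 ± 0.10 and Krt18, an epithelial keratin, by 0.38 ± 0.09. Vcam1, an adhesion molecule, fell by 0.44 ± 0.12, a call lost without BPN 4 and BPN 5 (adjusted p = 0.0746) and without any 1 of BPH 1, BPH 2, BPH 3, BPN 1, BPN 3 or BPN 4 (weakest -0.39, adjusted p = 0.0753). Havcr1 and Lcn2, the injury markers KIM-1 and NGAL, differed by 0.17 ± 0.11 (adjusted p = 0.473) and -0.17 ± 0.16 (adjusted p = 0.693).

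Of 18 measured clock genes, 1 rose and 1 fell, with a median of -0.03. Rora, an activator of the clock loop, rose by 0.39 ± 0.10, a call lost without BPH 3, BPN 1 or BPN 2 (weakest 0.34, adjusted p = 0.0563). Nr1d2, a repressor of that loop, fell by 0.48 ± 0.13, a call lost without BPH 1, BPH 2, BPH 3, BPN 1 or BPN 3 (weakest -0.38, adjusted p = 0.0822). The other probe set of Rora rose by 0.46 ± 0.09 (adjusted p = 0.00346 in the limma fit of all kidney arrays). Without BPN 5, 3 clock genes fell, and without BPN 4 and BPN 5, 2 rose and 2 fell. The hour of collection is not in the labels. None of 16 immediate early genes was called, with a median of -0.06, and without BPN 2, 2 rose, while without BPN 3, 1 fell.

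Markers of other tissue near the kidney gave few calls. Of 6 measured urothelium genes, 1 rose, the keratin Krt7 (0.36 ± 0.07), with a median of -0.21, and without BPH 3, 2 fell. None of 8 measured adipocyte genes was called, with a median of -0.21, although their mean level lay between -1.44 and 0.99 in BPH arrays and between -0.13 and 0.31 in BPN arrays. None of 7 striated muscle genes was called, with a median of 0.06. Of 2 measured red cell genes, 1 rose, Slc4a1.

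**Figure D5:**
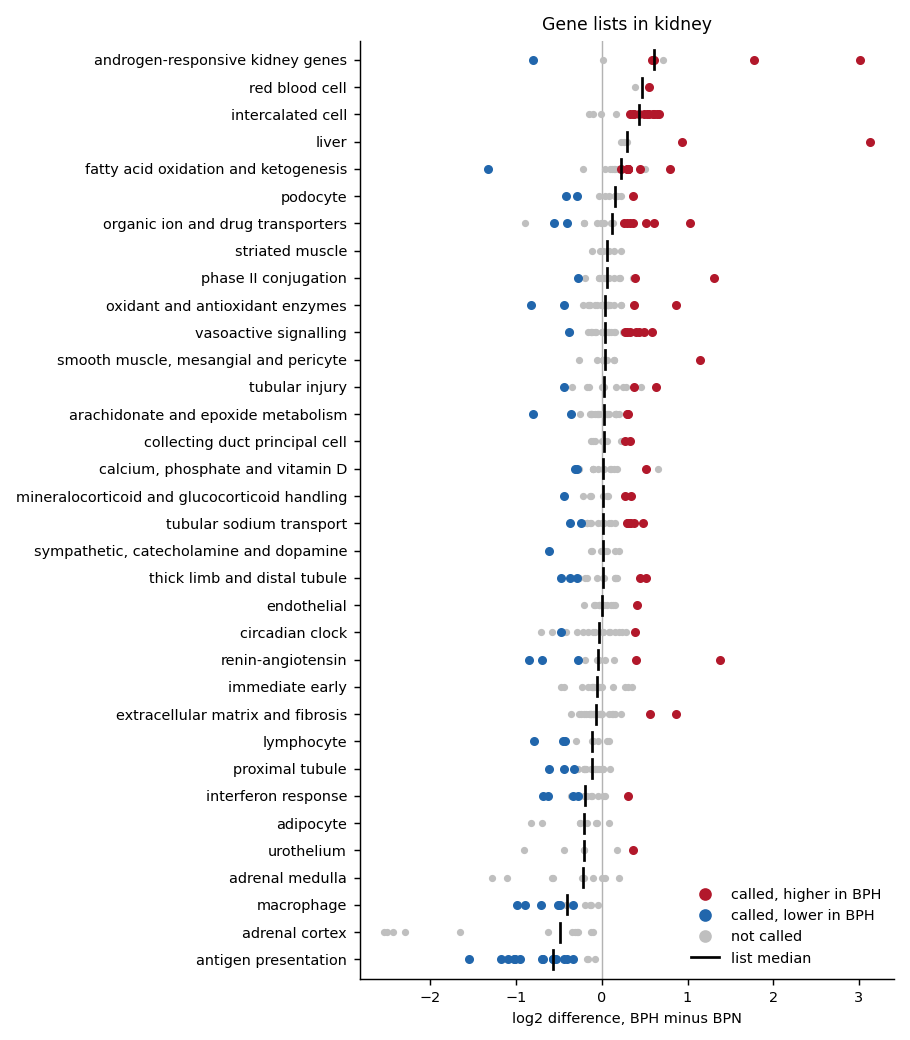
Log2 difference of BPH minus BPN for each measured gene of the 34 lists, with called genes in red (higher in BPH) or blue (lower in BPH), other genes in grey and the list median as a black line. The intercalated cell genes lie at a median of 0.44 and the antigen presentation genes at -0.57, the lowest median of the lists.

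The BPH against BPN difference was also compared with that in other tissues, each measured in its own arrays. The difference itself departed between kidney and heart at 1812 probe sets (4.72%), between kidney and liver at 1612 (4.2%) and between kidney and aorta at 2251 (5.86%), by interaction terms in limma. Of the 1643 genes called in kidney, 447 were called with the same sign in heart, 472 in liver and 390 in aorta, and 70, 58 and 107 were called with the opposite sign. The shares of all named genes called in those tissues are not given here, so these counts cannot be set against them. Aorta RNA was amplified by another method, so tissue and method cannot be told apart in that comparison.

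Hdc, Angptl7, Spink6, Akr1c18 and Slc6a18, the 5 genes of lowest interaction p against heart and liver among the largest differences, had kidney differences much larger in size than those in heart and liver. Hdc differed by 4.76 in kidney, 0.12 in heart, 0.02 in liver and 0.08 in aorta, and Slc6a18 by -2.18 in kidney, -0.05 in heart, -0.06 in liver and 0.00 in aorta. Angptl7 differed by 5.34 in kidney, 0.51 in heart (adjusted p = 0.0114), 0.18 in liver and 0.48 in aorta. No departure was called for Cyp4b1. Cyp4b1 rose by 3.01 in kidney, 3.03 in heart, 3.09 in liver and 3.38 in aorta, with interaction adjusted p of 0.964, 0.834 and 0.58. Tmem267 fell in all 4 tissues (-6.36 in kidney, -4.06 in heart, -5.10 in liver and -4.36 in aorta). Its departures from heart, liver and aorta were called (interaction adjusted p of 1.1e-13, 3.92e-08 and 6.36e-12). These sizes are not ranked because the BPH kidney level was near background. A departure did not always mean a larger kidney difference, since Gdpd3 rose by 2.34 in kidney, 5.78 in heart, 5.00 in liver and 4.92 in aorta.

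Among the grouped genes, H2-Ab1 fell in all 4 tissues (-1.55 in kidney, -1.53 in heart, -1.35 in liver and -1.69 in aorta), with interaction adjusted p of 0.985, 0.803 and 0.939. Sod2 fell in kidney (-0.83), heart (-1.06) and liver (-0.63), and differed by -0.40 in aorta (adjusted p = 0.061). Foxi1 differed by 0.60 in kidney, -0.09 in heart, 0.03 in liver and -0.14 in aorta, with interaction adjusted p of 0.000518, 0.0317 and 0.00603. Levels in those other tissues are not given here. Some intercalated cell genes were also called elsewhere, namely Aqp6 in heart (2.03), Rhbg in liver (1.10) and aorta (-2.89), and Slc26a4 in liver (0.56) and aorta (-1.11). The remaining genes of that list called in kidney were not called in heart, liver or aorta. Gusb differed by 1.78 in kidney, -0.08 in heart, 0.20 in liver and -0.15 in aorta, with interaction adjusted p of 1.38e-10, 9.21e-09 and 2.21e-14. Mme rose by 1.38 in kidney and 3.61 in liver and differed by 0.37 in heart (adjusted p = 0.0804) and -0.48 in aorta (adjusted p = 0.366). Of the 30 genes chosen for their large kidney difference, 26 departed from heart, 21 from liver and 25 from aorta. That kidney difference enters the interaction, so these counts follow in part from the choice of genes. Of the same 30, 16 were called with the same sign in heart, 16 in liver and 16 in aorta, again without the shares of all genes called there.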

How the data were processed

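Kidney RNA was copied into biotin-labelled cRNA with an RT/IVT protocol and hybridised to a custom array of 1 colour, per the labels' protocols. The authors deposited 1 intensity for each probe set after RMA, as named in the submitters' processing notes. RMA sets arrays to a common distribution, so a difference in total RNA is not visible. The values are linear, and log2 was taken here with a pseudocount of 0. Of 38385 probe sets, 24478 had 1 symbol, 65 had several and 13842 were not listed in the platform annotation. Symbols were updated through the RefSeq table for 24237.

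limma 3.58.1 in R 4.3.3 (lmFit and eBayes) was fitted to the 14 kidney arrays with a mean per strain, and Benjamini-Hochberg values were taken over all probe sets. Interactions used all arrays of the 2 tissues. The fit was tested on simulated data. Named genes were the 15 largest increases and 15 largest decreases among called genes without overlap and called without BPN 4 and BPN 5, the 5 called members of lowest p of each of 34 lists, fixed genes of kidney function, and 5 genes that differed from heart and liver. This gave 137 genes, and 25 more were added with their values in view. The members and lists were chosen with earlier results of these data known. Lists were described by counts and medians. Plates and scan dates were not given, so batches could not be tested, and the number of arrays limits the precision. Alternatives covered the arrays fitted, covariate, normalization, pseudocount, filter, probe set choice and replicate block.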

Additional observations from a re-analysis of the deposited data

Results flagged for a closer look

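Single arrays lay apart from the other 4 of their strain in 15 of 324 groups of 5 arrays examined, and chance flags about 1 in 20 groups, so this number is near what chance gives. Arrays above the others of their strain, in log2 intensity, were 4833420G17Rik in BPH 5 at 7.82 (others 7.63 to 7.68), Atp6v1c2 in BPH 3 at 7.51 (others 7.26 to 7.32), C1qc in BPH 3 at 6.07 (others 5.74 to 5.83), H2-Aa in BPN 2 at 8.49 (others 7.95 to 8.10), H2-K1 in BPN 2 at 10.25 (others 9.48 to 9.69), Kit in BPH 5 at 6.77 (others 6.42 to 6.51), Tgfb2 in BPH 5 at 6.35 (others 5.93 to 6.01), Tmem87a in BPH 4 at 8.56 (others 8.36 to 8.41). Arrays below the others were 4833420G17Rik in BPN 2 at 8.59 (others 8.85 to 8.91), Acadl in BPN 2 at 10.75 (others 10.88 to 10.93), Atp6v1b1 in BPN 5 at 8.53 (others 8.66 to 8.68), Cyp11b2 in BPH 5 at 3.89 (others 4.11 to 4.19), Gbp2 in BPH 5 at 6.06 (others 6.29 to 6.38), Gucy1a1 in BPH 1 at 8.10 (others 8.41 to 8.48), Mme in BPN 5 at 7.85 (others 8.14 to 8.24).

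Of 30 genes of largest kidney difference, 26 departed from heart and 21 from liver in the BPH against BPN difference, by limma interaction terms. These counts are raised by choosing the genes for their kidney difference, which enters the interaction. The 5 shown here were chosen among the 30 for lowest interaction p, so their small p-values follow in part from that choice. For Angptl7 the kidney difference minus that in heart was 4.83 (adjusted p = 1.01e-16), and minus that in liver 5.16 (adjusted p = 9.21e-19). For Hdc the kidney difference minus that in heart was 4.64 (adjusted p = 1.8e-19), and minus that in liver 4.74 (adjusted p = 4.25e-20). For Spink6 the kidney difference minus that in heart was -4.95 (adjusted p = 1.75e-21), and minus that in liver -4.17 (adjusted p = 5.6e-14), and the sizes depend on background, since BPH kidneys averaged 3.07, under the lower quartile limit of 3.64. For Akr1c18 the kidney difference minus that in heart was -3.13 (adjusted p = 6.32e-14), and minus that in liver -3.27 (adjusted p = 3.39e-15). For Slc6a18 the kidney difference minus that in heart was -2.14 (adjusted p = 4.26e-14), and minus that in liver -2.12 (adjusted p = 4.1e-13). Over all probe sets such a departure was called at 1812 against heart, 1612 against liver and 2251 against aorta.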

How the results depend on the processing

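A sign was read as a direction only for called values, and no called gene named here turned. The 2706 called probe sets became 2185 to 2494 when any 1 BPH or BPN array was left out, 2233 without BPN 4 and BPN 5, 2290 also without BPL 1 (chosen after seeing the data), 2591 with the adrenal cortex level as a covariate, 1858 in a joint fit of all 12 groups, and 3311 with a pseudocount of 16. All other alternatives lay between these bounds. The share of calls higher in BPH was 51.9% in the reported fit and 59.9% with the covariate, and calls lower in BPH became the more numerous without BPH 4 (49.4% higher) and without BPH 5 (49.2% higher). Interaction counts without any 1 array were 1596 to 1811 for heart, 1422 to 1559 for liver and 1917 to 2062 for aorta. Without BPN 4 and BPN 5 they were 1714, 1505 and 1703. With the replicate number as a block, 2351 probe sets were called. Same-numbered BPH and BPN arrays, as departures from their strain mean, correlated between -0.026 and 0.278, over 0.1 in 1 of 5 pairs. Of the 5, 2 correlated best with their own number. With only 5 pairs, these values cannot settle whether the numbers pair the samples. Of 135 called named genes, 117 kept their call without any 1 array, 118 without BPN 4 and BPN 5, 93 in the joint fit and 125 with the block. The joint fit left 7 of 11 intercalated cell increases, 11 of 14 antigen presentation decreases, 3 of 6 macrophage decreases, 1 of 6 sodium transport increases and 1 of 8 fatty acid oxidation increases, and the cause was not tested. Genes near the lowest quartile of intensity are limited by background.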
